A study of Mus musculus with 59 samples.

Results

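Acyl-CoA thioesterases were followed in brown adipose tissue (BAT) through 10 genes, Acot1, Acot2, Acot3, Acot4, Acot5, Acot7, Acot8, Acot9, Acot11 and Acot13, chosen by gene name among the 55341 genes listed in the count tables. Each of the 59 libraries came from the BAT of 1 male C57BL/6J mouse aged 8-12 weeks. In the thyroid hormone (TH) experiment, wild-type (WT) mice were made hypothyroid with propylthiouracil (PTU), an inhibitor of thyroid hormone synthesis, given in the food for 2 weeks, and received a single injection of T3 and T4. The groups were WT PTU without hormone (n = 4), WT at 3 h, 6 h, 12 h and 24 h after TH (n = 4 each), and BATKO mice on PTU (n = 5) or on PTU and 24 h after TH (n = 5). In the temperature experiment, CTRL mice were kept for 24 h at 4 °C (n = 3) or 30 °C (n = 4), and BATKO mice at 4 °C (n = 4) or 30 °C (n = 5). In the diet experiment, CTRL mice received chow (n = 4) or a high-fat diet (HFD, n = 4) for 3.5 days, and BATKO mice chow (n = 2) or HFD (n = 3). The genetic change of BATKO mice is not given in the sources used here, so that no targeted gene could be checked.

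Acyl-CoA thioesterases split a fatty acyl-CoA into a free fatty acid and coenzyme A, the opposite of the step by which acyl-CoA synthetases activate fatty acids. Each enzyme works in its own compartment: Acot1 and Acot7 in the cytosol, Acot2 and Acot9 in mitochondria, Acot3, Acot4, Acot5 and Acot8 in peroxisomes. Acot11 (also called Them1) is known as the cold-inducible thioesterase of brown fat, and Acot13 (Them2) as a partner of the phosphatidylcholine transfer protein Pctp. BAT burns fatty acids for heat, and several Acot genes are textbook targets of the fatty acid receptor PPARα.

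Libraries held from 7805938 to 18073627 counts in the TH experiment, from 8008348 to 12887313 in the temperature experiment and from 7612059 to 11533900 in the diet experiment, of which 39.2% to 55.7% fell on genes of the mitochondrial genome. The 10 BATKO libraries of the TH experiment were deeper (13593987 to 18073627) than the 20 WT libraries (7805938 to 14615534), and genotype and library set cannot be told apart there. Brown adipocyte markers, 8 genes including Ucp1 and Cidea, were detected in every group, with summed levels between 678 CPM (counts scaled to the library total) in a CTRL mouse at 30 °C and 22857 CPM in a CTRL mouse at 4 °C. The 8 skeletal muscle markers ranged from 0.64 to 7931 CPM and exceeded 1000 CPM in 11 of 59 mice. In bulk tissue, fewer cells of a type and less RNA per cell cannot be told apart.

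The first 5 genes lie next to each other on the plus strand of chromosome 12 (GRCm38) in the order Acot2 (83987861 to 83993873), Acot1 (84009490 to 84018371), Acot4 (84038379 to 84048601), Acot3 (84052144 to 84060402) and Acot5 (84069325 to 84076020). Acot8 (chromosome 2, minus strand, 164792765 to 164804882), Acot11 (chromosome 4, minus strand, 106744555 to 106804998), Acot7 (chromosome 4, plus strand, 152178134 to 152271855), Acot13 (chromosome 13, minus strand, 24817948 to 24831540) and Acot9 (chromosome X, plus strand, 155262443 to 155297654) lie apart. The coding sequences of Acot1 and Acot2 were identical at 95.3% of 1236 aligned bases, with 1 identical run of 273 bases. Of the 10 pairs among Acot1 to Acot5 the other pairs ranged from 73.8% for Acot4 and Acot5 to 85.4% for Acot3 and Acot5.

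Stretches of 60 bases show where reads of Acot1 and Acot2 can and cannot be told apart. The transcript used for each gene has 3 exons. In exon 1 the same sequence stands in Acot1 at chr12:84009703-84009762 and in Acot2 at chr12:83988218-83988277, and a read from there fits both genes.
Acot1 and Acot2, exon 1: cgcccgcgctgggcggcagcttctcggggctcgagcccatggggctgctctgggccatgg
In exon 3 the window with the most differences has 13, given in capitals, at chr12:84016942-84017001 in Acot1 and chr12:83992664-83992723 in Acot2 (both 5′ to 3′ on the plus strand).
Acot1, exon 3: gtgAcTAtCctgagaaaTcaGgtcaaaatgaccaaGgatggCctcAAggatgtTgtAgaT
Acot2, exon 3: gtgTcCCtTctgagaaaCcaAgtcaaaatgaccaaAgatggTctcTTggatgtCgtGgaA

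Over whole transcripts, 20.5% of all 75-base stretches of Acot2 occur in Acot1 and 11.2% of those of Acot1 in Acot2. Stretches of 75 bases shared with any Acot gene made up 13.8% of Acot5, 5.72% of Acot3, 5.29% of Acot9 (through Acot10) and 1.67% of Acot4, and none of Acot7, Acot8, Acot11 or Acot13. With all other genes included, the shared part was 18.1% of Acot3, 15.5% of Acot11, 9.90% of Acot4 and 8.44% of Acot8. This count includes genes that overlap a member at its own place in the genome, such as Fam151a for Acot11 and Snx21 for Acot8. A read from such an overlap need not fit several places. The authors removed reads with a low mapping quality, which takes out reads that fit several places. In the mice with the fewest Acot1 reads beside Acot2, BATKO mouse 15 at 30 °C had 1 read in Acot1 and 533 in Acot2 (0.188%), and WT mice 28 and 26 at 24 h had 2 reads each in Acot1 against 261 and 233 in Acot2. Reads passing from Acot1 to Acot2 could not be measured in this way. Acot8 overlaps Snx21 on the other strand over 12.3% of its exonic bases, and since the strand setting of the counting is not given in the sources used here, reads of the pair cannot be separated there. Acot11 overlaps Fam151a on the other strand over 20.9% of its exonic bases, and Fam151a had a mean count of at most 0.1 in each experiment.

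Levels were compared between genes as CPM per kilobase of exon. The aligner placed no reads across introns and shared reads were filtered, so members with many exons or close relatives may read too low on this scale. Without division by length the order can differ, as in the TH experiment, where Acot11 had a mean of 2477 and Acot13 of 1771 normalized counts. Acot13 was first in all 15 groups, with group means between 136 CPM per kb (BATKO HFD) and 245 CPM per kb (WT 24 h). Acot2 ranked 2 or 3, with means from 9.85 CPM per kb (WT 24 h) to 75.3 CPM per kb (BATKO HFD), and Acot11 ranked between 2 and 5, from 4.40 CPM per kb (CTRL 30 °C) to 86.9 CPM per kb (CTRL 4 °C). In WT PTU mice the order was Acot13 (167 ± 6.64 CPM per kb, SD, n = 4), Acot2 (25.6 ± 4.01), Acot11 (13.7 ± 5.97) and Acot9 (8.02 ± 0.73). Below them Acot4 (2.13 ± 0.35), Acot7 (2.12 ± 0.34), Acot1 (1.54 ± 0.26) and Acot8 (1.36 ± 0.26) followed, of which Acot4 and Acot7, and Acot1 and Acot8, lay within each other's SD. Acot5 (0.26 ± 0.11) and Acot3 (0.08 ± 0.02) were ranked 9 and 10, and Acot3 and Acot5 took these places in every group. Their mean normalized counts stayed under 10 in each experiment, so 8 of 10 members were tested.

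In WT mice, TH moved the members in opposite directions. Acot11 rose from 3 h on and reached 4.26-fold at 24 h, Acot7 and Acot13 rose from 12 h, Acot2 fell at 6 h and 24 h, and Acot1 and Acot4 fell at 24 h. Counts below are normalized for library size (TMM factors over the mice of an experiment), and changes are log2 fold changes with their standard error from edgeR's quasi-likelihood test, called at an adjusted p under 0.05 (Benjamini-Hochberg over all genes tested). At 3 h 1 of 8 members was called, where 9.19% of 13003 genes were. At 6 h 3 of 8 were called (23% of all genes), at 12 h 3 of 8 (25.7%), at 24 h 6 of 8 (32.7%), and between 3 h and 24 h 5 of 8 (21.2%). The median change of the 8 members at 24 h was -0.10, with 3 higher and 3 lower calls, against 0.01 over all genes. All time points share the WT PTU mice. Summed brown adipocyte markers lay between 7096 and 9334 CPM in WT PTU mice and higher without overlap after TH, from 9987 to 15503 CPM at 3 h, 12462 to 14869 at 6 h, 11170 to 18558 at 12 h and 9676 to 17413 at 24 h. The 8 single markers did not all follow the sum. At 3 h 3 rose and 1 fell, and at 24 h Ucp1 rose (0.93) while Cidea (-0.86), Elovl3 (-2.26) and Zic1 (-0.48) fell. Their part in the members' values was not tested.

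**Figure D1:**
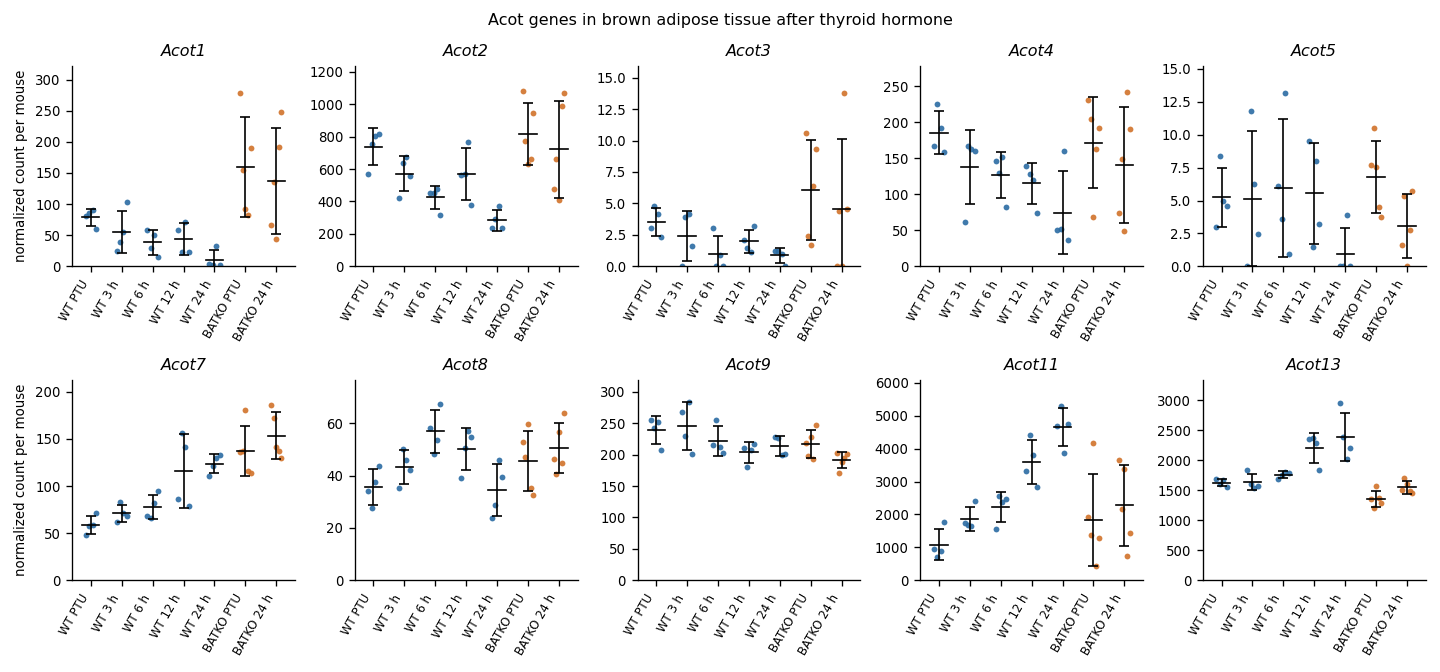
Normalized count per mouse (vertical axes, from 0, scaled per gene) of each Acot gene in the 7 groups of the TH experiment. Points are mice (WT blue, BATKO orange), the horizontal line is the group mean and the bar 1 SD, cut at 0 where it would go below. Acot11, Acot7 and Acot13 climb over the WT time points while Acot1, Acot2 and Acot4 are lowest at 24 h, and BATKO PTU and BATKO 24 h mice overlap for all 10 genes.

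Acot11, the brown fat thioesterase, gave the largest increase of the 8 members at 24 h. WT PTU mice had 948, 713, 905 and 1781 normalized counts, and WT mice 24 h after TH had 4684, 5286, 3880.3 and 4735. All 4 mice at 24 h lay above all 4 controls, by a log2 fold change of 2.09 ± 0.23 (edgeR adjusted p = 7.45e-07). In between, group means were 1874 ± 365 at 3 h, 2239 ± 455 at 6 h and 3589 ± 677 at 12 h (SD, n = 4). The change was 0.77 ± 0.22 at 3 h (edgeR adjusted p = 0.0355), 1.02 ± 0.22 at 6 h (edgeR adjusted p = 0.00244) and 1.73 ± 0.23 at 12 h (edgeR adjusted p = 9.02e-06). At 3 h and 6 h the mice overlapped with control mouse 5 (1781). The call at 3 h was lost in 4 of 8 fits that left out a mouse (WT PTU mouse 2, 3 or 4, or 3 h mouse 11), with adjusted p between 0.0795 and 0.130, with the other groups out of the fit (adjusted p = 0.0735), and with all 30 mice of the experiment in it (adjusted p = 0.263). The last of these fits also lost the call at 6 h (1.04, adjusted p = 0.0795). From 3 h to 24 h Acot11 rose by a further 1.33 ± 0.23 (edgeR adjusted p = 0.000276).

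Acot7, a cytosolic thioesterase, stood at 48.2, 57.4, 58.9 and 71.4 normalized counts in WT PTU mice and at 111, 122, 129.5 and 133 at 24 h. The groups did not overlap, and the change was 1.07 ± 0.19 (edgeR adjusted p = 0.000229), after 0.98 ± 0.20 at 12 h (edgeR adjusted p = 0.000777). Acot13, the highest member by CPM per kb, went from 1695, 1606, 1671 and 1551 normalized counts to 2949, 2394, 2028 and 2198 at 24 h, again without overlap. Its change was smaller, 0.45 ± 0.11 at 12 h (edgeR adjusted p = 0.00346) and 0.55 ± 0.11 at 24 h (edgeR adjusted p = 0.000456). Both also rose between 3 h and 24 h, Acot7 by 0.82 ± 0.19 and Acot13 by 0.56 ± 0.11. The peroxisomal Acot8 was called at 6 h alone of the 4 time points, with 34.2, 27.5, 37.3 and 43.8 normalized counts in controls and 58.0, 48.4, 53.4 and 67.3 at 6 h (0.65 ± 0.20, edgeR adjusted p = 0.0223). This call was lost without WT PTU mouse 2, WT PTU mouse 3 or 6 h mouse 17 (adjusted p between 0.0561 and 0.0804), and a difference between the time points was tested only for 24 h against 3 h (-0.29 ± 0.21, edgeR adjusted p = 0.347).

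Acot1, the cytosolic long-chain thioesterase, had 80.4, 84.9, 90.5 and 59.9 normalized counts in WT PTU mice. At 24 h mice 24, 26 and 28 had 3.74, 2.51 and 1.80 and mouse 27 had 33.1, all below the controls. The change at 24 h was -2.86 ± 0.62 with all mice (edgeR adjusted p = 0.00128) and -4.86 without mouse 27 (edgeR adjusted p = 2.5e-05). Between 3 h and 24 h it was -2.35 ± 0.63 with all mice (edgeR adjusted p = 0.0110) and -4.34 without mouse 27. The values without mouse 27 rest on 2 or 3 Acot1 reads a mouse at 24 h, no more than the floor of 3 reads per library used below. Acot2, its mitochondrial neighbour, went from 569.5, 756, 807 and 819 normalized counts to 237, 293, 369 and 235, without overlap and with mouse 27 again the highest. It also fell between 3 h and 24 h (-0.99 ± 0.20, edgeR adjusted p = 0.00132). Its change against the controls was -1.38 ± 0.20 at 24 h (edgeR adjusted p = 2.16e-05), -0.81 ± 0.20 at 6 h (edgeR adjusted p = 0.00513) and -0.37 ± 0.20 at 12 h, which was not called (edgeR adjusted p = 0.182).

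Acot4, a peroxisomal member of the cluster, had 167, 226, 192 and 159 normalized counts in WT PTU mice and 49.9, 51.5 and 36.0 in 24 h mice 24, 26 and 28. Mouse 27 had 161 and overlapped the controls. The change was -1.30 ± 0.36 with all mice (edgeR adjusted p = 0.00853) and -2.03 without mouse 27 (edgeR adjusted p = 4.5e-05). Mouse 27 was also the only 24 h mouse with Acot5 reads, 4 against 0 in the other 3, and not the one with skeletal muscle markers above 1000 CPM. Summed over Acot1 to Acot5, WT PTU mice had 1011 ± 128 and 24 h mice 370.1 ± 136 normalized counts (SD, n = 4). The sum does not depend on how reads were split among these 5 genes, but it lacks shared reads that the mapping-quality filter took out. Acot1 reads were 7.31% to 14.1% of the number of Acot2 reads in WT PTU mice, 0.766% to 1.58% in 24 h mice 24, 26 and 28 and 8.97% in mouse 27. The mitochondrial Acot9 was called at no WT time point, with changes between -0.22 at 12 h and 0.01 at 3 h.

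In BATKO mice, none of the 8 members was called 24 h after TH, and none of 14178 genes was (0%; 673 had an unadjusted p under 0.05 in edgeR, and DESeq2 also called 0). No member had an unadjusted p under 0.05. The members' changes lay between -0.29 (Acot4) and 0.31 (Acot11). The BATKO mice on PTU differed widely among themselves for Acot11, with 1910.4, 1370.3, 4170.3, 438 and 1279 normalized counts, and so did those given TH, with 3660.4, 2161, 3366, 755 and 1451. Acot1 ranged from 81.7 to 279 in BATKO PTU mice and from 43.2 to 248 at 24 h, a spread wider than that of WT PTU mice, and Acot2 from 632 to 1081 and from 409.8 to 1071.

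The difference between the BATKO and the WT response at 24 h was tested as an interaction. It passed for 4 of 8 members, where 12.3% of all genes did. Acot1 (2.63 ± 0.82, edgeR adjusted p = 0.0332) and Acot2 (1.20 ± 0.33, edgeR adjusted p = 0.0172) had a less negative response in BATKO mice, and Acot11 (-1.78 ± 0.57, edgeR adjusted p = 0.0360) and Acot7 (-0.91 ± 0.25, edgeR adjusted p = 0.0154) a smaller increase. The difference was not called for Acot13 (-0.36 ± 0.14), Acot4 (1.01 ± 0.56), Acot8 (0.17 ± 0.29) and Acot9 (-0.01 ± 0.15). Acot2 and Acot7 were called in all 18 fits without a mouse. Acot1 was lost in 9 of them, without BATKO PTU mouse 4, BATKO 24 h mouse 10 or 15, WT PTU mouse 2, 3 or 4, or WT 24 h mouse 24, 26 or 28 (2.23 to 2.61, adjusted p 0.0525 to 0.0853). Acot11 was lost in 9, without BATKO PTU mouse 2 or 4, BATKO 24 h mouse 10 or 15, WT PTU mouse 2, 3 or 4, or WT 24 h mouse 26 or 28 (-1.77 to -1.23, adjusted p 0.0516 to 0.117). Without WT 24 h mouse 27, 6 members were called, Acot1 at 4.64, and Acot4 (1.74, adjusted p = 0.0390) and Acot13 (-0.44, adjusted p = 0.0416) were added. Without the mice above the muscle limit Acot1 (2.35, adjusted p = 0.0779) and Acot11 (-1.72, adjusted p = 0.0646) were not called, nor were they with only the 4 groups compared in the fit (adjusted p = 0.0513 and 0.0958).

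**Figure D2:**
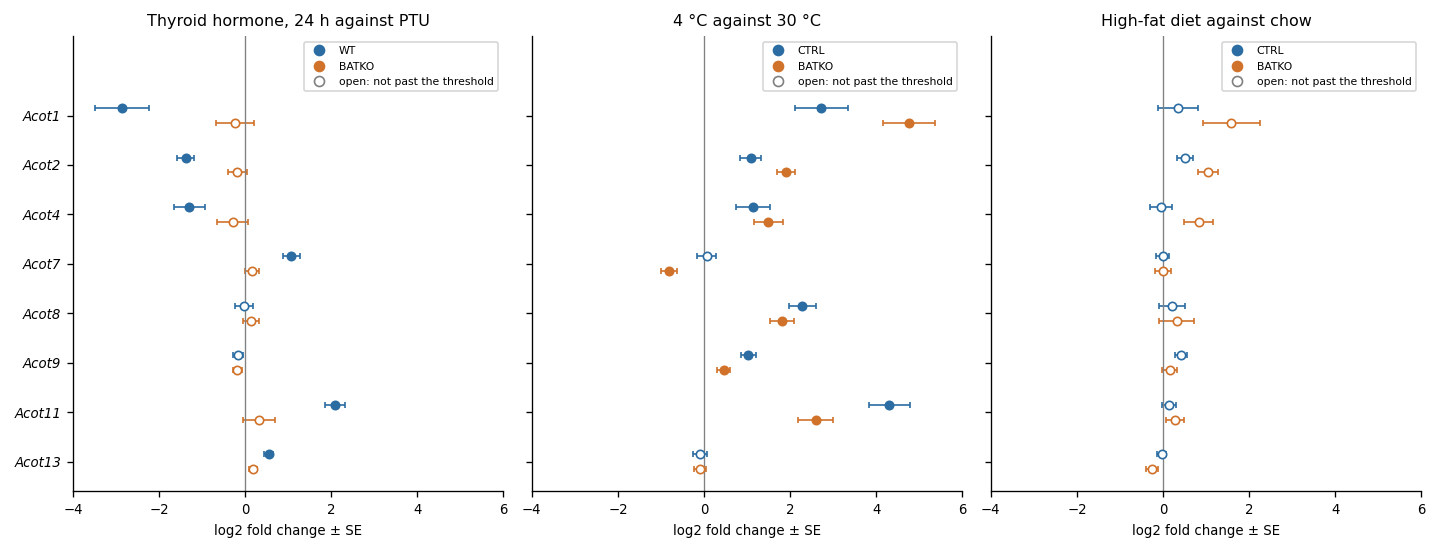
Log2 fold change ± SE (horizontal axes) of the 8 tested Acot genes after TH for 24 h (left), in the cold (middle) and on HFD (right), in WT or CTRL mice (blue) and BATKO mice (orange), with open circles for changes not past the threshold. After TH, 6 WT and 0 BATKO circles are filled. In the cold 6 CTRL and 7 BATKO circles are filled, and on HFD none is.

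On PTU alone, BATKO and WT mice differed at 70.3% of all genes tested, and 2 of 8 members were called. Acot7 was higher in all 5 BATKO mice (136, 138, 181, 116 and 114 normalized counts) than in the 4 WT mice (48.2 to 71.4), by 1.22 ± 0.18 (edgeR adjusted p = 8.8e-07). WT mice at 24 h had 111 to 133. Acot13 was lower by -0.26 ± 0.10 (edgeR adjusted p = 0.0199) with overlapping mice, a call lost without BATKO PTU mouse 3 (-0.22, adjusted p = 0.0588), without the filter on low counts (adjusted p = 0.0678) and with mouse numbers as a replicate block (adjusted p = 0.129). Acot1 (1.00 ± 0.49, edgeR adjusted p = 0.0677) and Acot11 (0.76 ± 0.40, edgeR adjusted p = 0.0959) did not pass, nor did Acot2 (0.15 ± 0.23), Acot4 (-0.12 ± 0.38), Acot8 (0.35 ± 0.20) and Acot9 (-0.14 ± 0.10). Acot1 passed without BATKO PTU mouse 4 or 11 (1.15 to 1.17, adjusted p 0.0393 to 0.0444), and Acot11 without BATKO PTU mouse 11 or WT PTU mouse 5 (1.01 to 1.09, adjusted p 0.0151 to 0.0300). Brown adipocyte markers summed to 1948 to 3036 CPM in BATKO PTU mice and 7096 to 9334 CPM in WT PTU mice, and the part of this in the members' values was not tested.

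Cold raised 6 of 8 members in CTRL mice, where 49.1% of 13267 genes were called in either direction (3514 higher and 3000 lower). In BATKO mice it raised 6 of 8 with 1 lower, where 40.3% of genes were called (2836 higher and 2504 lower). The median change of the 8 members was 1.10 in CTRL and 1.65 in BATKO mice, against -0.01 and -0.02 over all genes. Acot1, Acot2, Acot4, Acot8, Acot9 and Acot11 rose in both genotypes. Acot13 was called in neither (-0.10 ± 0.16 and -0.10 ± 0.14). Brown adipocyte markers also stood higher in the cold, between 17595 and 22857 CPM against 678 to 2754 in CTRL mice, and between 9594 and 17536 against 1646 to 3037 in BATKO mice, and the part of this in the members' values was not tested.

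**Figure D3:**
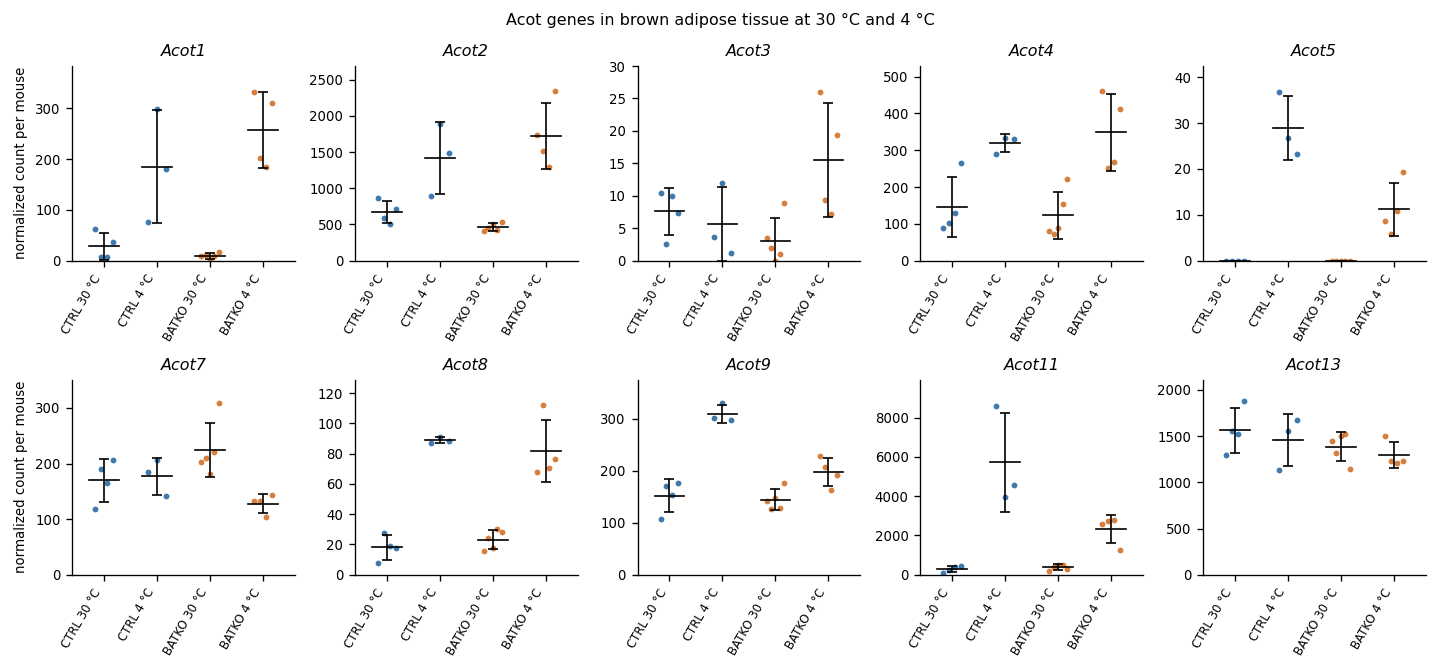
Normalized count per mouse (vertical axes, from 0, scaled per gene) of each Acot gene at 30 °C and 4 °C in CTRL (blue) and BATKO (orange) mice, with the mean (line) and 1 SD (bar, cut at 0). Acot11 in CTRL mice goes from 86.8 to 443 at 30 °C to 3982 to 8597 at 4 °C, Acot5 is at 0 in all 9 mice at 30 °C, and Acot13 does not separate the temperatures.

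Acot11 had 86.8, 229.6, 400.3 and 443 normalized counts in CTRL mice at 30 °C and 8597, 3982 and 4589.7 at 4 °C. No mouse of one temperature came near the other, and the change was 4.30 ± 0.48 (19.8-fold, edgeR adjusted p = 2.91e-06). BATKO mice had 209, 392, 516, 512 and 305 at 30 °C and 2562, 2719.7, 2777 and 1236 at 4 °C, a change of 2.59 ± 0.40 (6.01-fold, edgeR adjusted p = 0.000113). At 4 °C all 4 BATKO mice lay below all 3 CTRL mice, but the genotype difference (-1.30 ± 0.44, edgeR adjusted p = 0.139) and the difference in response (-1.72 ± 0.60, edgeR adjusted p = 0.135) did not pass.

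Acot1 showed the largest cold change in BATKO mice, from 8.53, 10.1, 0.95, 9.48 and 16.9 normalized counts at 30 °C to 332, 203, 185 and 311 at 4 °C (4.76 ± 0.61, 27.1-fold, edgeR adjusted p = 2.05e-05). The 30 °C values rest on 1 to 23 reads a mouse, and without the mice above the muscle limit the change was 5.54. In CTRL mice it went from 61.6, 6.96, 6.33 and 37.0 to 76.0, 298 and 181 (2.72 ± 0.62, edgeR adjusted p = 0.00168). CTRL 30 °C mouse 19 and CTRL 4 °C mouse 1 brought these groups close together, and the change was 3.50 without the former and 1.88 without the mice above the muscle limit (adjusted p = 0.0144). Acot2 rose in CTRL mice from 869, 594, 509 and 712 to 887, 1883 and 1487 (1.08 ± 0.24, edgeR adjusted p = 0.00139). BATKO mice had 411, 453, 504, 418 and 528 at 30 °C and 1739.6, 1513, 1297 and 2351 at 4 °C (1.90 ± 0.21, edgeR adjusted p = 5.95e-06). The BATKO response exceeded the CTRL response by 2.04 ± 0.87 for Acot1 and 0.82 ± 0.32 for Acot2, neither past the threshold (edgeR adjusted p = 0.219 and 0.179).

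The peroxisomal Acot8 rose from 7.81, 27.8, 19.0 and 18.0 normalized counts in CTRL mice to 87.1, 90.8 and 88.7 (2.28 ± 0.31, edgeR adjusted p = 2.08e-05) and from a mean of 23.2 ± 6.40 (SD, n = 5) to 81.8 ± 20.4 (n = 4) in BATKO mice (1.81 ± 0.27, edgeR adjusted p = 8.03e-05). Acot4 rose by 1.13 ± 0.39 in CTRL mice (edgeR adjusted p = 0.0251) and 1.50 ± 0.35 in BATKO mice (edgeR adjusted p = 0.00268). The CTRL call of Acot4 was lost without CTRL 30 °C mouse 19, 20 or 21 or CTRL 4 °C mouse 2 or 5 (0.95 to 1.10, adjusted p 0.0557 to 0.0705), and without the mice above the muscle limit (0.87, adjusted p = 0.101). The mitochondrial Acot9 had 107, 170.4, 153 and 177 in CTRL mice at 30 °C and 302, 329.9 and 298 at 4 °C (1.03 ± 0.17, edgeR adjusted p = 0.00012). In BATKO mice Acot9 rose by 0.45 ± 0.15 with overlapping mice (edgeR adjusted p = 0.0257), a call lost without BATKO 30 °C mouse 14 or 16 or BATKO 4 °C mouse 7 or 8 (0.36 to 0.42, adjusted p 0.0562 to 0.0929) and without the mice above the muscle limit (0.65, adjusted p = 0.0616).

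Acot7 went the other way in BATKO mice, from 203, 209.7, 182, 221 and 308 normalized counts at 30 °C to 132, 133, 104 and 143 at 4 °C, without overlap (-0.81 ± 0.19, edgeR adjusted p = 0.00261). Without the mice above the muscle limit it was not called (-0.56, adjusted p = 0.146). In CTRL mice Acot7 had 118 to 207 at 30 °C and 141 to 206 at 4 °C (0.06 ± 0.21), and the difference in response did not pass (-0.87 ± 0.28, edgeR adjusted p = 0.110). Between genotypes, none of the 8 members was called by edgeR at 4 °C (2.16% of all genes), at 30 °C (0.00754%, 1 gene) or in the difference of responses (1.12%), with 3, 3 and 5 members and 2194, 1209 and 2471 genes at an unadjusted p under 0.05. DESeq2 called 1, 0 and 0 members, and 5%, 0.0606% and 5.16% of 13212 genes. The member it called, Acot9 at 4 °C, was lower in all 4 BATKO mice (164 to 229) than in the 3 CTRL mice, by -0.65 ± 0.17 with edgeR (adjusted p = 0.0579) and -0.67 with DESeq2 (adjusted p = 0.00978).

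Acot5 and Acot3, too low for the test, are given as reads. Acot5 had 0 reads in all 9 mice at 30 °C, where a count of 0 allows up to 3 reads a library. At 4 °C CTRL mice had 30, 20 and 20 reads and BATKO mice 8, 5, 9 and 19. Against a floor of 3 reads per library, Acot5 was at least 9.65-fold higher in the cold in CTRL mice and at least 3.73-fold higher in BATKO mice. Acot3 reads overlapped between temperatures, with 3 to 12 at 30 °C and 1 to 9 at 4 °C in CTRL mice and 0 to 12 and 6 to 24 in BATKO mice. Its mean normalized count at 30 °C and 4 °C was 7.59 and 5.62 in CTRL mice and 3.04 and 15.5 in BATKO mice.

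The starts of these genes were searched for AGGTCA, the half-site of nuclear receptors such as TR and PPARα, on both strands (TGACCT on the other), in the 250 bases before and 50 after the start (RefSeq, GRCm38.p6). Of 9 members with an entry, Acot3, Acot4 and Acot5 held it and 6 did not, and 16.3% of 32851 promoters do. Direct repeats of it with 1 (DR1) or 4 (DR4) bases between, which contain the half-site, were in none of the members and in 0.0396% and 0.0152% of all promoters. A match is a description of the letters and not a binding site. Of these, Acot4 and Acot5 stood higher in the cold, while Acot3 reads overlapped between temperatures. Of the 6 members without the half-site, 5 (Acot1, Acot2, Acot8, Acot9 and Acot11) also rose in the cold in both genotypes. The BATKO call of Acot9 was lost in some fits, as given above. Over all genes 49.1% were called in the cold in CTRL mice and 40.3% in BATKO mice, in either direction. The former pair is shown 5′ to 3′ on the plus strand with the half-sites in capitals, Acot4 at chr12:84038129-84038428 and Acot5 at chr12:84069074-84069373.
Acot4: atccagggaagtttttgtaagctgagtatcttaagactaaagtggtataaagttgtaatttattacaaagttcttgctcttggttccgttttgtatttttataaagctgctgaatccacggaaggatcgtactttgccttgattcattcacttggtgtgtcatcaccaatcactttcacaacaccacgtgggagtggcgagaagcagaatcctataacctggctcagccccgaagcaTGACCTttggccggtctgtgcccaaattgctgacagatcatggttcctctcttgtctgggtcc
Acot5: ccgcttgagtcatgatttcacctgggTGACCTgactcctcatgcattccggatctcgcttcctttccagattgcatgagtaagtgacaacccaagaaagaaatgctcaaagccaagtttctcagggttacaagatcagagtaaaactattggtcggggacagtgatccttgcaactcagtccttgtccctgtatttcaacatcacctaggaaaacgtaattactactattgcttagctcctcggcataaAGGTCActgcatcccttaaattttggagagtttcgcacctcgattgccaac

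Acot2 and Acot11, which both rose in the cold, did not rise together within the cold mice. The CTRL mouse with the most Acot11 at 4 °C (mouse 1, 8597 normalized counts) had the least Acot2 (887), and the BATKO mouse with the least Acot11 (mouse 12, 1236) had the most Acot2 (2351). Over the 7 mice at 4 °C, as deviations of log2 CPM from the group mean, Pearson's r was -0.94 and Spearman's rho -1, both with an exact permutation p of 0.00694, the smallest that 144 permutations within groups can give (adjusted p = 0.0312 over 9 relations). Without the 2 mice farthest from the median in Acot11 r was -0.90. In the 10 BATKO mice of the TH experiment the same r was -0.47 (rho -0.60, exact permutation p = 0.170 and 0.0906, adjusted 0.255 and 0.163), and in the 9 mice at 30 °C -0.47 (rho -0.27, exact permutation p = 0.388 and 0.577). Without the 2 farthest mice these r were -0.77 and -0.26. The relations were chosen after the values were seen.

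**Figure D4:**
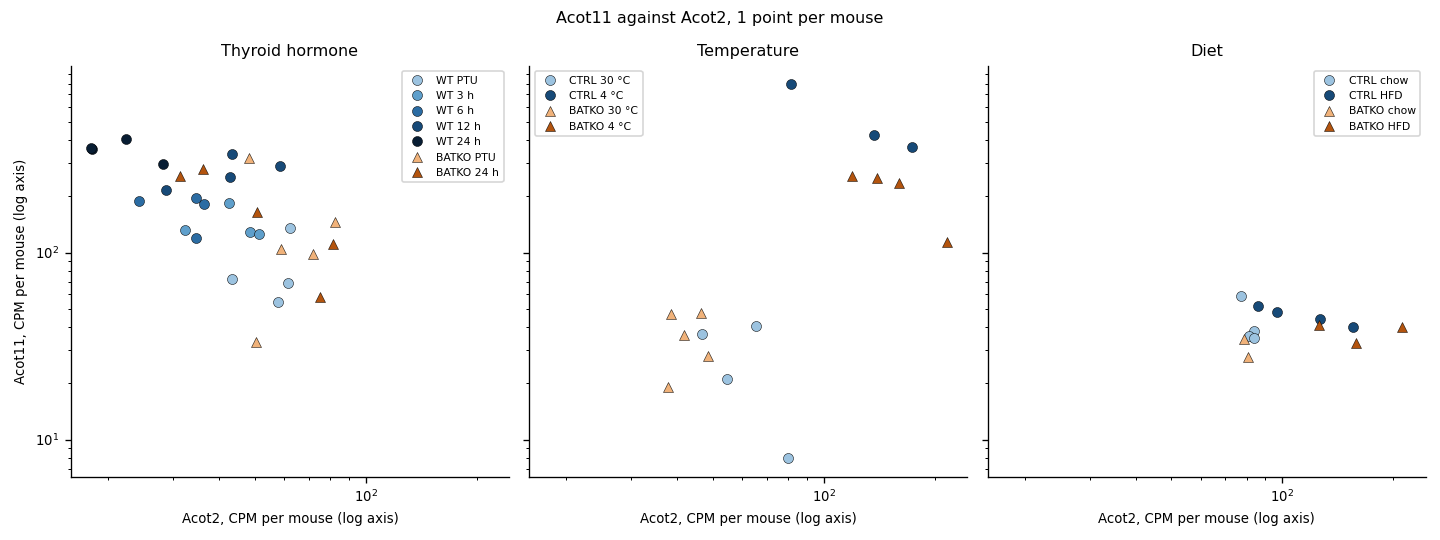
CPM of Acot11 (vertical, log axis) against CPM of Acot2 (horizontal, log axis), 1 point per mouse, for the TH (left), temperature (middle) and diet (right) experiments, with WT or CTRL mice as circles and BATKO mice as triangles. In the cold (dark symbols, middle) the mice with more Acot2 have less Acot11 within each genotype. WT mice (left) have low Acot11 and high Acot2 on PTU and the reverse at 24 h. Acot2 does not fall steadily in between, with mean normalized counts of 572 at 3 h, 425 at 6 h and 568 at 12 h.

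Acot1 and Acot2 varied together instead, with r of 0.97 over the 10 BATKO mice of the TH experiment (rho 0.95, exact permutation p = 0.000139 and 0.000486, adjusted 0.00125 and 0.00437 over the 9 relations, r 0.97 without the 2 mice farthest from the median). At 4 °C the same r was 0.93 (rho 0.82, exact permutation p = 0.0208 and 0.0694, adjusted 0.0625 and 0.156) and at 30 °C 0.61 (rho 0.63, exact permutation p = 0.167 and 0.123), with 0.82 and 0.84 without the 2 farthest mice. Both genes share 75-base stretches, as given above. Among 9944 genes over the 30 mice of the TH experiment, described by Pearson's r of log2 CPM with all groups pooled, the genes most like Acot1 were Acot2 (0.91), Bfar (0.87) and Bnip3l (0.87). Those most like Acot2 were Acot1, Slc27a1 (0.88) and Arxes1 (0.84), and those most like Acot11 were Suclg1 (0.91), Aspg (0.89) and Rcan1 (0.89).

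On HFD no member was called by edgeR, in CTRL mice (3.94% of 12932 genes called), in BATKO mice (0.0696%), between genotypes on HFD (0%) or chow (0%), or in the difference of responses (0%). In this order, 2, 3, 3, 1 and 0 of the 8 members and 2802, 1996, 691, 1024 and 740 of all genes had an unadjusted p under 0.05. DESeq2 called 0, 1, 0, 0 and 0 members, and 6.74%, 1.68%, 0.0699%, 0.241% and 0% of 12883 genes. Acot2 had 724, 705, 669 and 726 normalized counts in CTRL mice on chow and 839, 742, 1344 and 1094 on HFD, without overlap (0.51 ± 0.18, edgeR adjusted p = 0.118). In BATKO mice it had 682 and 698 on chow and 1833, 1089 and 1371 on HFD (1.05 ± 0.24, edgeR adjusted p = 0.0856, DESeq2 adjusted p = 0.00287). With 2 BATKO mice on chow this value has little replicate support. The change of Acot11 was 0.13 ± 0.16 in CTRL and 0.29 ± 0.21 in BATKO mice, and that of Acot1 0.35 ± 0.47 and 1.58 ± 0.66. Acot7 (-0.01 ± 0.15 and 0.0024 ± 0.19), Acot8 (0.21 ± 0.31 and 0.32 ± 0.41), Acot9 (0.41 ± 0.14 and 0.15 ± 0.18) and Acot13 (-0.03 ± 0.11 and -0.26 ± 0.14) were not called either. Acot4 in BATKO mice on HFD (469, 316 and 456) was above 3 of 4 CTRL mice on HFD (145, 135 and 206, with mouse 10 at 374), by 0.93 ± 0.27 (edgeR adjusted p = 0.884), and without CTRL HFD mouse 10 by 1.35 (adjusted p = 0.0223).

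**Figure D5:**
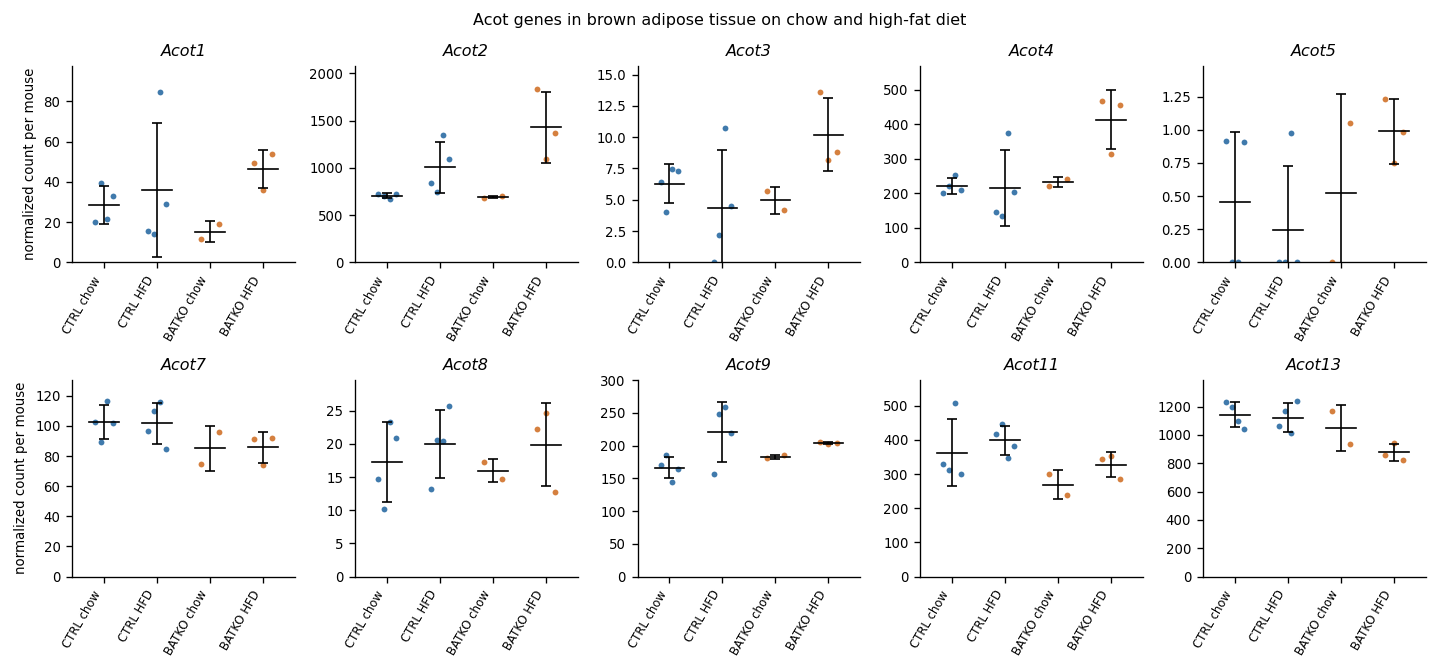
Normalized count per mouse (vertical axes, from 0, scaled per gene) of each Acot gene on chow and HFD in CTRL (blue) and BATKO (orange) mice, with the mean (line) and 1 SD (bar, cut at 0). Acot2 lies between 669 and 726 in CTRL mice on chow and between 742 and 1833 in all mice on HFD, and Acot11 stays between 239 and 509 in all groups.

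The genes around the members were read from lists. Beside their counts stand the shares of all genes called in either direction. These were 32.7% at 24 h after TH in WT mice, and 49.1% in CTRL and 40.3% in BATKO mice in the cold. Of 9 tested other thioesterases, 3 rose and 2 fell 24 h after TH in WT mice, and 3 rose in the cold in CTRL mice and 5 in BATKO mice, with 1 lower. Them4, a mitochondrial thioesterase, rose at all 4 WT time points (0.83 ± 0.13, 1.13 ± 0.13, 1.14 ± 0.13 and 1.00 ± 0.13) and in the cold (2.08 ± 0.18 in CTRL and 1.58 ± 0.16 in BATKO mice), and its TH response was smaller in BATKO mice (-1.04 ± 0.21, edgeR adjusted p = 0.00168). Of 15 acyl-CoA synthetases, which run the opposite reaction, 3 rose and 3 fell at 24 h in WT mice. Acsf2 (1.88) and Acsl5 (0.93) rose and Acsl1 (-1.81) and the fatty acid transporter Slc27a1 (-1.67) fell. In the cold 8 synthetases rose in CTRL and 9 in BATKO mice, with 2 lower in each, led by Acsl5 (4.45 and 3.19) and Acsm3 (-3.12 and -1.88).

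Coenzyme A itself is made from pantothenate, which the kinases Pank1, Pank2 and Pank3 phosphorylate, while their relative Pank4 lacks this activity in mammals. The same shares of all genes apply. Of 11 genes of CoA synthesis and breakdown, 3 rose and 3 fell at 24 h in WT mice, among them Pank1 (0.84) and Pank4 (0.66) upward and Pank3 (-1.52) and Pank2 (-0.70) downward. In the cold 7 rose and 1 fell in CTRL mice, and 6 rose and 2 fell in BATKO mice. Of 10 acyl-CoA and fatty acid carriers, 2 rose and 6 fell at 24 h in WT mice (Fabp3 1.48, Fabp5 -1.06, Fabp4 -0.98), while 6 rose in CTRL and 7 in BATKO mice in the cold with none lower. Of 15 PPAR target genes, 2 rose and 4 fell at 24 h in WT mice, with Fabp3, which is in both lists, and Ucp3 (1.41) up and Ehhadh (-1.25) down, and in the cold 9 rose in CTRL and 10 in BATKO mice, with Plin2 (3.07 and 2.14) up and Angptl4 (-2.06 and -2.10) down in both. In BATKO mice 24 h after TH no gene of these 5 lists was called by edgeR or DESeq2, with 1, 0, 1, 0 and 2 at an unadjusted p under 0.05 in the order given.

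Markers of other cell types were read beside these results. The 8 skeletal muscle markers were all called higher in WT mice at 24 h against 3 h (median 3.00), and none was called in the other comparisons described here, where 7 of 8 had an unadjusted p under 0.05 at 3 h against WT PTU (median -2.01) and 3 of 8 in CTRL mice on HFD (median -3.05). Summed muscle markers were 3.15 to 227 CPM at 3 h and 254 to 1088 CPM at 24 h, and 60.8 to 620 CPM in WT PTU mice. All 4 mice at 24 h lay above all 4 at 3 h. Summed endothelial markers lay between 261 and 374 CPM in WT mice of the TH experiment and between 407 and 572 CPM in BATKO mice. Of the 5 markers, 2 rose and 1 fell in WT mice at 24 h, 4 were higher and 1 lower in BATKO than in WT mice on PTU, 2 rose and 1 fell in the cold in CTRL mice, and 1 rose and 2 fell in BATKO mice. Lymphocyte markers lay between 0.23 and 3.36 CPM over all mice. Summed macrophage markers lay between 19.8 and 102 CPM in the TH and temperature experiments. Of the 5 markers 1 rose in WT mice at 24 h, 1 was lower in BATKO than in WT mice on PTU, 1 fell in the cold in CTRL mice and 1 rose in BATKO mice, and 4 had an unadjusted p under 0.05 in the difference of cold responses, where none was called. In the diet experiment they lay at 57.5 to 69.1 CPM in CTRL mice on chow, 83.4 to 229 on HFD, 147 to 183 in BATKO mice on chow and 62.5 to 133 on HFD. None of the 5 macrophage markers was called there by edgeR, and all 5 had an unadjusted p under 0.05 for CTRL mice on HFD, between genotypes on chow and in the difference of responses. Summed white adipocyte markers lay between 127 and 138 CPM in WT PTU mice, and below them without overlap at 3 h (69.2 to 119) and 24 h (66.4 to 124.6), with 1 of 5 called higher and 2 lower at 24 h. They lay lower in BATKO PTU mice (32.3 to 59.8 CPM), where 2 of 5 were called higher and 2 lower than in WT PTU mice, and stood at 205 to 328 CPM in BATKO and 100.5 to 143 in CTRL mice on chow. In the cold 2 of 5 were called lower in each genotype, with 16.2 to 70.1 CPM at 4 °C and 49.4 to 180 at 30 °C in CTRL mice, and 43.2 to 107 and 91.7 to 206 in BATKO mice. Their part in the members' values was not tested.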

How the data were processed

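BAT RNA of 59 mice was sequenced by the authors from total RNA libraries (SENSE kit) on a NextSeq sequencer. Reads were mapped to the mouse genome (mm10) with Bowtie (Bowtie2 2.3.2.2 in the submitters' processing notes), reads of low mapping quality were removed, and the deposited values are raw counts per gene from htseqcount. Bowtie does not place reads across introns. Annotation version, read length and strand setting are not given in the sources used here. Counts of the 3 experiments were analysed separately, with groups taken from the labels.

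Genes with a mean normalized count above 10 were tested with edgeR 4.0.16 (R 4.3.3, TMM, quasi-likelihood, Benjamini-Hochberg, threshold 0.05, no fold threshold). WT time points were fitted in 20 mice, BATKO and interaction terms in all 30, and temperature and diet in 16 and 13 mice. DESeq2 1.42.0 was an alternative, and RLE factors, filters on low counts, fits of only the groups compared, removal of mitochondrial genes and leaving out each mouse were others. Fits without mice whose muscle markers exceeded 1000 summed CPM and of the TH interaction with shared mouse numbers as a block were added after the data were seen. The script was tested on simulated data. Correlations used scipy 1.17.1. Sequence sharing was computed over annotated transcripts and promoters came from RefSeq.

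The members and the other lists were chosen with earlier results of these data known. All 10 members were to be named, and a member not named in a comparison was not called there or, for Acot3 and Acot5, not tested. Of each other list at most 2 genes a direction are named, those with the largest change past the threshold and a mean normalized count above 50, and for Acot1, Acot2 and Acot11 the 3 genes most like them. Each mouse is 1 library, so the spread includes animal and technical variation. Total counts between 7612059 and 18073627 per mouse set the precision of low genes. Protein sequences were not used here.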

Additional observations from a re-analysis of the deposited data

Results flagged for a closer look

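In 11 of 118 combinations of a member and a group of 4 or 5 mice, 1 mouse stood apart from the rest by Dixon's criterion, where chance gives about 1 in 20 (5.9). WT mouse 27 at 24 h after TH was the highest for Acot1 (33.1 normalized counts against 1.80 to 3.74), Acot4 (161 against 36.0 to 51.5) and Acot5 (3.89 against 0). At 3 h, mouse 7 was lowest for Acot4 (61.9 against 161 to 167) and mouse 11 highest for Acot11 (2419 against 1651 to 1731). Mouse 17 was lowest for Acot2 at 6 h (317 against 453 to 477) and mouse 23 lowest for Acot13 at 12 h (1843 against 2286 to 2365). Among BATKO mice at 4 °C, mouse 12 was lowest for Acot11 (1236 against 2562 to 2777) and mouse 7 highest for Acot13 (1501 against 1211 to 1230.4). CTRL mouse 3 on chow was highest for Acot11 (509 against 301 to 329), and CTRL mouse 10 on HFD was the only one of its group with an Acot5 read (0.97 normalized counts against 0). For Acot5 in these mice and in WT mice at 24 h, all other mice had 0, where any read meets the criterion by construction. The number given for chance does not hold for such low counts.

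The response to TH at 24 h differed between BATKO and WT mice, by an interaction term, for Acot1 (2.63), Acot2 (1.20), Acot11 (-1.78) and Acot7 (-0.91), as BATKO minus WT on the log2 scale.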

How the results depend on the processing

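Of 37 calls of a member, 27 were kept under every alternative run and 10 were lost in at least 1, all of them of the same sign throughout. Counts of members called moved by over 1.5 times as follows. With only the groups compared in the fit, 0 members were called at 3 h in WT mice (1 in the report), 5 at 6 h (3) and 2 in the TH interaction (4). With all 30 mice in the fit, 0 were called at 3 h. Without mice above the muscle limit, 2 were called in the TH interaction. For BATKO against CTRL at 4 °C, 1 was called with DESeq2, with RLE factors or without mitochondrial genes (0), and for BATKO mice on HFD 1 with DESeq2 and 2 without a filter on low counts (0). Without that filter 1 was called for CTRL mice on HFD and 1 for BATKO against CTRL mice on HFD (0 each). Other alternatives' counts, beside the fits without a mouse and with a replicate block given next, stayed within 1.5 times of those in the report, and the causes were not tested. A filter at a mean of 50 counts leaves out low members by construction.

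Leaving out 1 mouse at a time gave between 0 and 1 calls at 3 h, 2 and 3 at 6 h, 2 and 6 in the TH interaction, 1 and 4 for BATKO against WT on PTU, and 0 and 1 in the difference of cold responses, for CTRL mice on HFD and for BATKO against CTRL mice on HFD. In the difference of cold responses the call was Acot7 without CTRL 4 °C mouse 5 (-1.01, adjusted p = 0.0466), and for CTRL mice on HFD it was Acot9 without mouse 7 (0.55, adjusted p = 0.0173). The 46 uncalled changes followed over the alternatives were those of Acot1, Acot2 and Acot11 and of members called in at least 1 alternative. Without a mouse, these crossed 0 for Acot1 in BATKO mice after TH (-0.55 to 0.069), for Acot11 in the difference of HFD responses (-0.044 to 0.32) and for Acot1 in CTRL mice on HFD (-0.55 to 0.60).

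Mouse numbers 2, 3 and 4 recur in the WT PTU and BATKO PTU groups. A fit of these groups with the replicate block called 4 members, against 3 in the same fit without it and 2 in the report. The TH interaction holds the same mice, and a fit of its 4 groups with these numbers as a replicate block, added after the data were seen, called 1 member (Acot7) against 2 without the block, with Acot2 at 1.22 (adjusted p = 0.0544). Same-numbered mice did not deviate together (r = 0.12, -0.37 and -0.08), but so few correlations within small groups cannot show whether these mice share more than a number. The groups of the other comparisons shared no numbers.

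Depth limited Acot3 and Acot5, with at most 30 reads in any mouse, and in diet mice Acot8 and Acot1. It also limited Acot1 in WT mice at 24 h (2 to 34 reads) and in BATKO mice at 30 °C (1 to 23 reads). The floor of 3 reads covers counting error only.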

Other observations

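Acot6, which lies in the same cluster and is no member, rose 12 h after TH in WT mice (0.85 ± 0.25, edgeR adjusted p = 0.0155) and was lower in BATKO than in WT mice on PTU (-1.41 ± 0.25, edgeR adjusted p = 9.16e-06). Acot10, an intronless relative of Acot9 that shares 8.20% of its 75-base stretches with it, rose in CTRL mice on HFD (0.46 ± 0.11, edgeR adjusted p = 0.0310). Lypla1, which takes palmitate off proteins, fell 24 h after TH in WT mice (-0.47 ± 0.16, edgeR adjusted p = 0.0270) and rose in the cold (0.67 ± 0.18 in CTRL and 1.04 ± 0.16 in BATKO mice). Summed over Acot1 to Acot5, BATKO mice had 598 ± 105 normalized counts at 30 °C (SD, n = 5) and 2358 ± 607 at 4 °C (SD, n = 4), and CTRL mice 853 ± 199.9 (SD, n = 4) and 1957 ± 633 (SD, n = 3).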
